A study of Homo sapiens with 16 samples.

Results

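The pentose phosphate pathway is described here through 6 of its enzymes, PGLS, PGD, RPIA, RPE, TKT and TALDO1, among 19775 genes measured. They were taken as a listed set of genes, found by gene symbol in the array's annotation, where 16 probe sets name them. Each gene is represented by its probe set with the highest mean over the 16 arrays, and all 6 were measured. No filter on low signal was applied in the main comparison, so none of the 6 was removed.

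The pathway branches off glycolysis at glucose 6-phosphate. Its oxidative branch makes NADPH, the reducing agent of lipid synthesis and glutathione recycling, and ends in ribulose 5-phosphate. Its non-oxidative branch interconverts sugar phosphates reversibly, so that it can supply ribose for nucleotides or return carbon to glycolysis. In several cell types mTOR complex 1 is known to raise the expression of pathway genes through sterol regulatory element-binding proteins, and pancreatic carcinoma cells are known to draw on the non-oxidative branch for ribose.

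The study asked how inhibition of mTOR changes mRNA levels and their loading on ribosomes. MIA PaCa-2, an established line from a human pancreatic carcinoma, was given the mTOR kinase inhibitor PP242 at 2.5 µM or its vehicle DMSO for 12 hours. Cytosolic RNA (Total NT with vehicle, Total 242 with PP242) and polysome RNA (Poly NT, Poly 242) were hybridised to Affymetrix arrays, with 4 arrays in each of the 4 groups. Polysome RNA was pooled from sucrose gradient fractions (10% to 50%) in which an mRNA carries more than 3 ribosomes. All groups are the same cell line, and the labels name no transgene or edited allele. Whether the 4 replicates came from separate cultures is not stated, and the spread that p-values are measured against may be technical. The series holds 1 cell line, 1 dose and 1 time.

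Values are log2 array signals, and the precision is limited by 4 arrays a group. Of 6 markers of a carcinoma line (keratins KRT7, KRT8, KRT18 and KRT19, VIM and EPCAM), 5 lay above the median gene on all 16 arrays and EPCAM lay below it on all 16. After PP242, KRT19 was called higher in both pools (1.13 on polysomes and 1.57 in the cytosol), as was KRT18 (0.39 and 0.78), and KRT8 in the cytosol (0.86). None of 4 leukocyte, 3 endothelial and 4 normal pancreas markers lay above the median gene on all 16 arrays, and none of them was called. Of 6 fibroblast markers COL1A1 and COL1A2 lay above it on all 16, and COL1A2 and COL3A1 were called lower after PP242 in both pools. The mean level of the 6 fibroblast markers was 6.63 to 6.83 in Total NT, 6.33 to 6.53 in Total 242, 6.74 to 6.96 in Poly NT and 6.42 to 6.61 in Poly 242, and the part of the keratins and of these markers in the results was not tested. Arrays of a group correlated at 0.979 to 0.998 across genes. The cytosolic PP242 group was the most variable, with a median gene SD of 0.245 against 0.122 to 0.159 in the other groups. Its arrays 2 and 4 had the lowest weights of all 16 (0.360 and 0.251), so some results that rest on them are given without them too. The cytosolic and polysome arrays look normalized apart, so a PP242 effect is relative to the other mRNAs of its pool, and a polysome level set against a cytosolic one depends on how the pools were scaled. In such bulk RNA, fewer cells with an mRNA and less mRNA per cell cannot be told apart.

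PP242 moved the enzymes in different directions. PGLS was the 1 member that rose, by 0.48 ± 0.12 (log2, limma SE) in polysome RNA and 0.52 ± 0.12 in cytosolic RNA. RPIA and RPE fell in both pools, and PGD fell in polysome RNA. The transferases TKT and TALDO1 did not pass the test in either pool. In polysome RNA 1 of the 6 rose and 3 fell (adjusted p under 0.05), where 13.4% of all genes were called (6.82% higher and 6.55% lower). The median of the 6 effects was -0.42 there, against -0.005 for all 19775 genes. In cytosolic RNA 1 rose and 2 fell, where 16.5% of all genes were called (8.54% higher, 7.91% lower), and the median was -0.09 against 0.04. With the replicate number as a block 20.3% of genes were called on polysomes and 24.9% in the cytosol, and the members' counts were 5 and 3. Leaving out replicate 1 left 1 polysome call among the members, with 8.55% of all genes called, and leaving out replicate 4 left 2, with 9.55%. Within replicates 1 and 2 the members' counts were 3 and 2, with 10.1% and 12.4% of all genes called. Within 3 and 4 limma called 0 of 6 on polysomes (3 at an unadjusted p under 0.05) and 1 of 6 in the cytosol, where 5.51% and 5.35% of all genes were called.

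**Figure D1:**
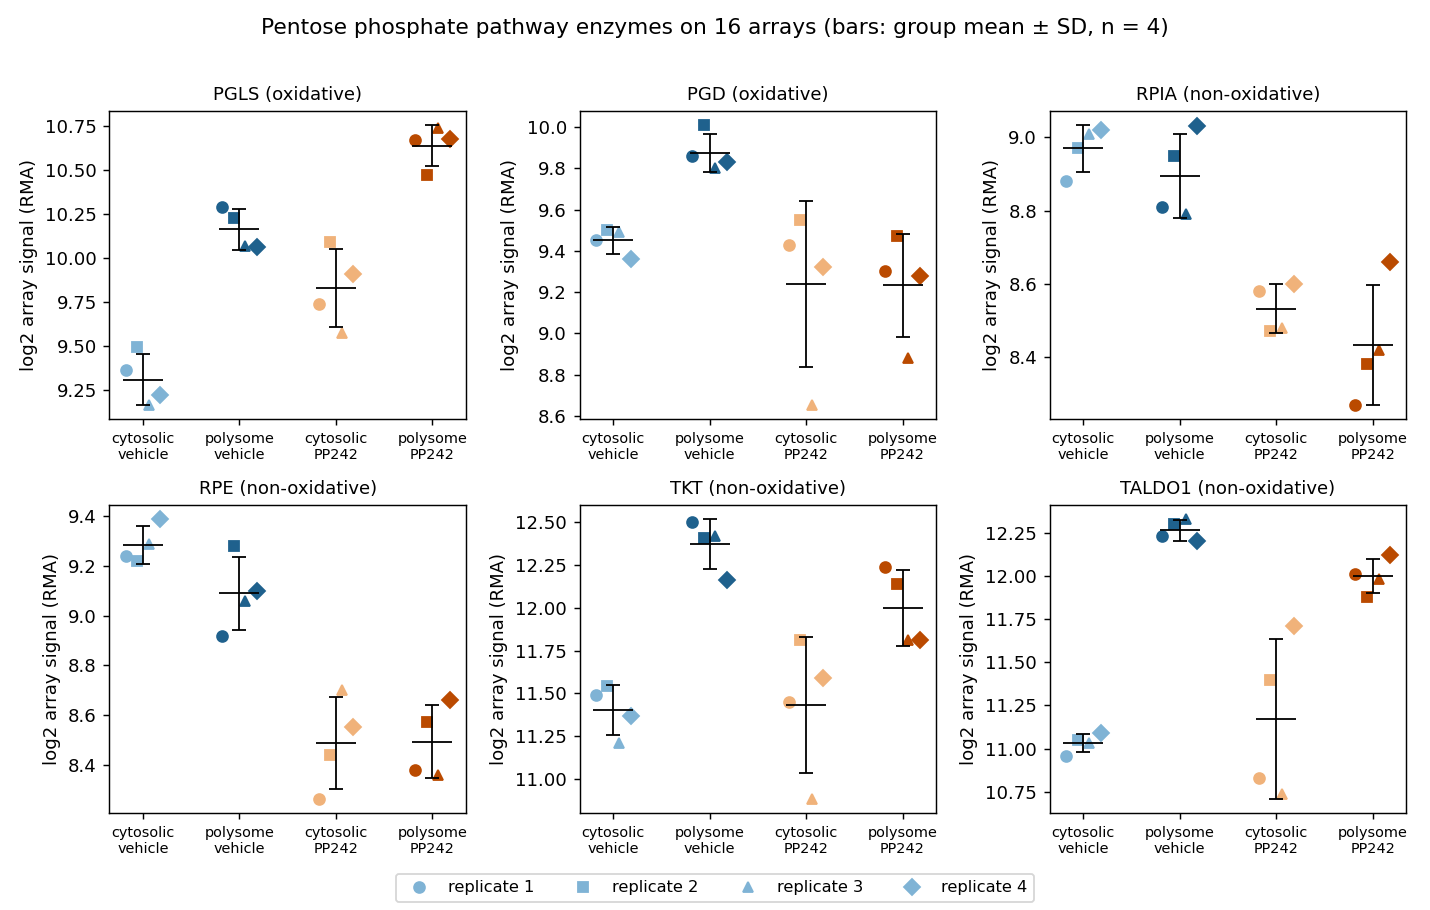
Log2 array signal of each enzyme on the 16 arrays, by group, with a symbol for each replicate number and bars for the group mean ± SD (n = 4). PGLS is higher after PP242 in both pools, RPIA and RPE are lower, and the cytosolic PP242 arrays spread widest for PGD, TKT and TALDO1; the vertical scale differs between panels.

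The oxidative branch split. PGLS encodes the lactonase that hydrolyses 6-phosphogluconolactone. Its polysome signal was 10.29, 10.23, 10.07 and 10.06 with vehicle and 10.67, 10.47, 10.74 and 10.68 with PP242 (replicates 1 to 4). In cytosolic RNA it read 9.36, 9.49, 9.16 and 9.22 with vehicle and 9.74, 10.09, 9.57 and 9.91 with PP242. All 4 PP242 arrays of each pool lay above all 4 vehicle arrays. Non-overlapping groups of this kind were found for 9.47% of all genes as rises in polysome RNA and for 9.34% in cytosolic RNA. The rise was 1.39-fold in polysome RNA (adjusted p = 0.0118, limma) and 1.43-fold in cytosolic RNA (adjusted p = 0.00596). It kept its direction when any 1 replicate number was left out. The polysome call was lost without replicate 1 (adjusted p = 0.0589), 3 (0.0614) or 4 (0.102), and the cytosolic call without replicate 4 (0.0843) or without the cytosolic PP242 arrays 2 and 4 (0.35 log2, 0.0879). In polysome RNA the rise was 0.31 within replicates 1 and 2 (adjusted p = 0.251) and 0.65 within 3 and 4 (0.0522). In cytosolic RNA it was 0.49 (0.0466) and 0.55 (0.0950).

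PGD encodes 6-phosphogluconate dehydrogenase, the NADPH-forming step after the lactonase. With vehicle its polysome signal was 9.86, 10.01, 9.80 and 9.83, and with PP242 9.30, 9.47, 8.88 and 9.28. The cytosolic signal was 9.45, 9.50, 9.49 and 9.36 with vehicle and 9.43, 9.55, 8.65 and 9.32 with PP242. On polysomes every PP242 array lay below every vehicle array, as for 9.86% of all genes in that direction, whereas the cytosolic groups overlapped and replicate 3 with PP242 stood low. PGD fell by 0.64 ± 0.16 in polysome RNA (adjusted p = 0.0109), while its cytosolic difference was -0.21 ± 0.16 (adjusted p = 0.407). Without replicate 3 the cytosolic difference was -0.003 and the polysome one -0.55 (adjusted p = 0.00746). Leaving out the low-weight cytosolic PP242 arrays 2 and 4 works the other way. It leaves the values 9.43 and 8.65, and so a larger cytosolic fall than with all arrays. The polysome call was lost without replicate 1 (0.0631) or 4 (0.0595). Within replicates 1 and 2 PGD fell on polysomes by 0.55 (adjusted p = 0.0182), and within 3 and 4 the difference was -0.74 (0.111), with cytosolic differences of 0.02 (0.962) and -0.44 (0.331).

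The enzymes that convert ribulose 5-phosphate fell in both pools. RPIA, the ribose 5-phosphate isomerase that makes the nucleotide precursor, read 8.81, 8.95, 8.79 and 9.03 on polysomes with vehicle and 8.27, 8.38, 8.42 and 8.66 with PP242. Cytosolic RPIA read 8.88, 8.97, 9.01 and 9.02 against 8.58, 8.47, 8.48 and 8.60. Neither pair of groups overlapped, as for 9.86% of all genes on polysomes and 8.34% in the cytosol in the lower direction. RPIA fell by 0.46 ± 0.11 on polysomes (adjusted p = 0.00577) and by 0.44 ± 0.11 in the cytosol (0.00792). The polysome call was lost without replicate 1 (0.0544) or 2 (0.0773) and the cytosolic call without replicate 2 (0.0844). The difference within replicates 1 and 2 was -0.56 on polysomes (0.0180) and -0.40 in the cytosol (0.0713), and within 3 and 4 it was -0.37 (0.275) and -0.48 (0.153).

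RPE is the epimerase that turns ribulose 5-phosphate into xylulose 5-phosphate, a substrate of transketolase. Its polysome signal went from 8.92, 9.28, 9.06 and 9.10 with vehicle to 8.38, 8.57, 8.36 and 8.66 with PP242. Its cytosolic signal went from 9.24, 9.22, 9.29 and 9.39 to 8.26, 8.44, 8.70 and 8.55. Again the groups did not overlap in either pool, as for 9.86% of genes in polysome and 8.34% in cytosolic RNA in the lower direction. RPE fell by 0.60 ± 0.12 on polysomes (1.51-fold, adjusted p = 0.00174) and by 0.80 ± 0.12 in the cytosol (1.74-fold, adjusted p = 1.13e-04). Both calls held without any 1 replicate number, with adjusted p from 0.0103 to 0.0291 on polysomes and from 5.59e-04 to 0.00359 in the cytosol. Within replicates 1 and 2 RPE fell by 0.63 on polysomes (adjusted p = 0.0199) and by 0.88 in the cytosol (0.00241). Within 3 and 4 the polysome difference was -0.57 (0.0866) and the cytosolic fall was 0.71 (0.0389). Without the cytosolic PP242 arrays 2 and 4 the cytosolic fall was 0.81 (0.00116). A retrocopy gene of near-identical sequence, RPEL1, shares a probe set with RPE that was not used, and whether the probe sets named for RPE alone also bind RPEL1 was not tested.

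The transferases of the non-oxidative branch did not pass the test. TKT is transketolase, and its polysome signal was 12.50, 12.41, 12.42 and 12.16 with vehicle and 12.24, 12.14, 11.81 and 11.81 with PP242. Its cytosolic signal was 11.49, 11.54, 11.21 and 11.37 with vehicle and 11.45, 11.81, 10.88 and 11.59 with PP242. Both pairs of groups overlapped, although each PP242 polysome array was lower than the vehicle array of its number (4 of 4). The difference was -0.37 ± 0.16 on polysomes (adjusted p = 0.154) and 0.03 ± 0.16 in the cytosol (0.923). With the replicate number as a block, which treats equal numbers as pairs, TKT passed on polysomes (adjusted p = 0.0392). It also passed with only the 8 polysome arrays in the fit (0.0498).

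TALDO1, transaldolase, read 12.23, 12.30, 12.33 and 12.20 on polysomes with vehicle and 12.01, 11.88, 11.98 and 12.12 with PP242. The cytosolic values were 10.96, 11.05, 11.03 and 11.09 with vehicle and 10.83, 11.40, 10.74 and 11.71 with PP242. The polysome groups did not overlap, as for 9.86% of all genes in the lower direction. In the cytosol arrays 1 and 3 with PP242 lay below all vehicle arrays and arrays 2 and 4 above them. TALDO1 differed by -0.27 ± 0.16 on polysomes (adjusted p = 0.336) and by 0.14 ± 0.16 in the cytosol (0.595). The fit shares 1 spread over all groups, and the SD of TALDO1 was 0.46 in cytosolic PP242 against 0.054 to 0.099 elsewhere. Without the cytosolic PP242 arrays 2 and 4 the polysome difference of -0.27 passed (adjusted p = 0.0170), as it did with only the polysome arrays (0.0385), and the cytosolic difference was -0.25 (0.104). For TKT the cytosolic difference without these arrays was -0.24 (0.481).

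**Figure D2:**
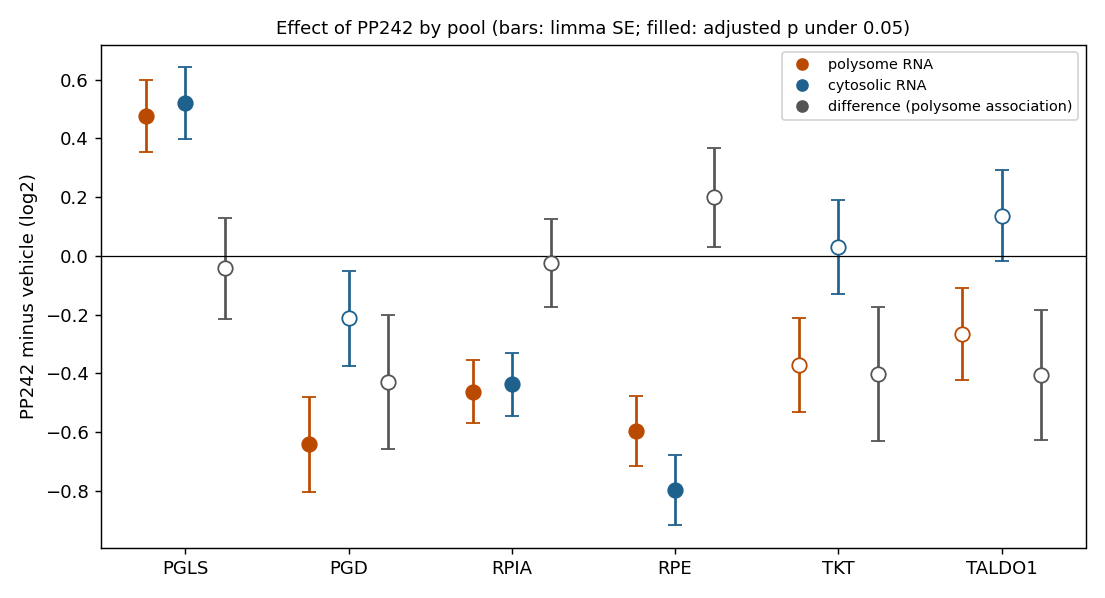
PP242 minus vehicle (log2) for each enzyme in polysome RNA, in cytosolic RNA, and as the difference of both effects, with limma SE; filled circles have an adjusted p under 0.05. PGLS lies above 0 in both pools, RPIA and RPE below 0 in both, and the differences of PGD, TKT and TALDO1 lie between -0.43 and -0.40 with open circles.

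The change of polysome association asks whether the polysome effect differs from the cytosolic one. PGD, TKT and TALDO1 had differences of -0.43 ± 0.23, -0.40 ± 0.23 and -0.40 ± 0.22. For RPE it was 0.20 ± 0.17, and for PGLS and RPIA -0.04 ± 0.17 and -0.03 ± 0.15. By limma 0 of 6 members passed (adjusted p from 0.571 to 0.968), and 0 of them had an unadjusted p under 0.05. The same holds for the whole table, where 0% of 19775 genes passed, with or without the replicate number as a block, and 8.85% (1750 genes) had an unadjusted p under 0.05. PGD thus passed on polysomes and not in the cytosol, and the difference between its effects was not called.

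Polysome minus cytosolic signal was then read within each replicate number. For PGD it was 0.41, 0.51, 0.31 and 0.47 with vehicle and -0.13, -0.08, 0.23 and -0.04 with PP242. These do not overlap, as for 4.74% of all genes in the lower direction. TKT went from 1.01, 0.87, 1.21 and 0.79 to 0.79, 0.33, 0.93 and 0.22. Each of its 4 numbers was lower with PP242, but the groups overlapped. TALDO1 went from 1.27, 1.25, 1.30 and 1.11 to 1.18, 0.48, 1.24 and 0.41, where the low values belong to numbers 2 and 4, whose cytosolic PP242 arrays have the lowest weights. Without those arrays the association difference was -0.23 for PGD, -0.13 for TKT and -0.02 for TALDO1.

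**Figure D3:**
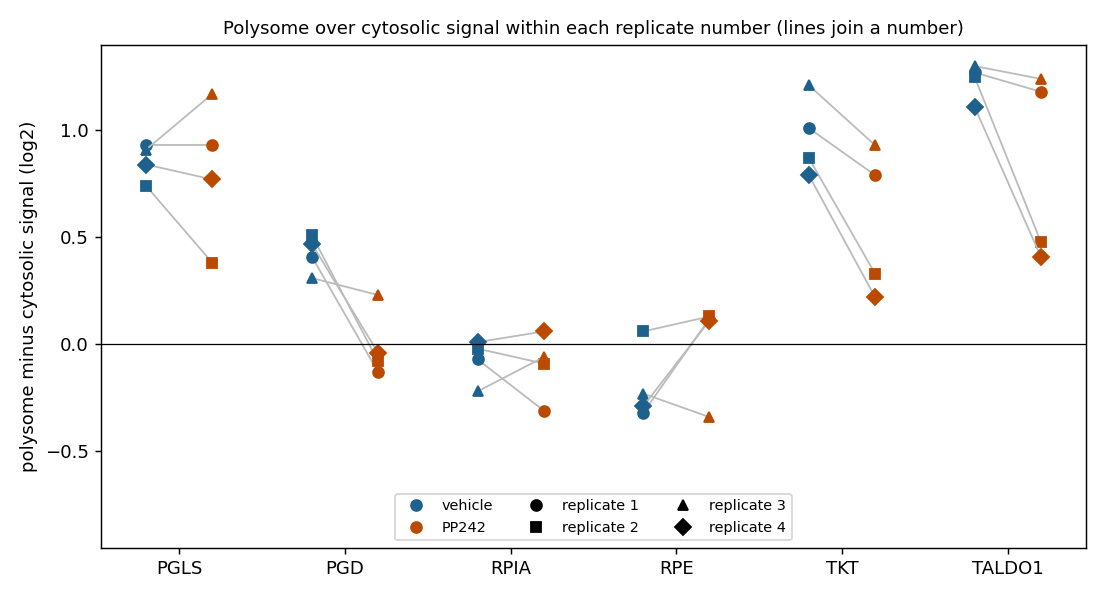
Polysome minus cytosolic log2 signal of each enzyme within each replicate number, with vehicle (blue) and PP242 (orange) joined by a line. The 4 lines of PGD, TKT and TALDO1 all slope down, steeply for numbers 2 and 4 of TALDO1 (to 0.48 and 0.41), and those of PGLS, RPIA and RPE go both ways or stay level.

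In vehicle-treated cells the enzymes differed in polysome loading. TALDO1 was 1.23 ± 0.16 higher in polysome than in cytosolic RNA (adjusted p = 3.95e-06), TKT 0.97 ± 0.16 (6.57e-05), PGLS 0.86 ± 0.12 (1.39e-05) and PGD 0.43 ± 0.16 (0.0345). RPIA at -0.07 ± 0.11 (0.578) and RPE at -0.20 ± 0.12 (0.178) did not pass. So 4 of 6 members were called higher, where 52.7% of genes were called (16.8% higher and 35.9% lower), and the median was 0.64 for the members and -0.16 for all genes. With PP242, 3 of 6 were higher (TALDO1 0.83 ± 0.16, PGLS 0.81 ± 0.12 and TKT 0.57 ± 0.16) where 54.1% of genes were called (16.1% higher and 38.1% lower), and PGD stood at -0.005 ± 0.16. The PP242 values of TALDO1 and TKT are lowered by numbers 2 and 4 (0.48 and 0.41, 0.33 and 0.22), whose cytosolic arrays have low weights. Numbers 1 and 3 gave 1.18 and 1.24 for TALDO1 and 0.79 and 0.93 for TKT. The scale matters here. Quantile normalization over all 16 arrays, which moves the median of all genes to 0.03, left TALDO1 at 0.87, TKT at 0.59 and PGLS at 0.60 with vehicle, all called, and PGD at 0.17, not called (adjusted p = 0.386). Under the same normalization RPE turned into a call at -0.38 (0.0115), and TKT with PP242 fell to 0.16 and was not called (0.386). The PGD call in vehicle was also lost without replicate 1 (0.109), 2 (0.102) or 4 (0.123).

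The order of the 4 groups differed by enzyme on the deposited scale, and the steps between pools depended on that scale. For PGLS it ran Poly 242, Poly NT, Total 242, Total NT, and each neighbour differed from the next (adjusted p from 0.00596 to 0.0238). After quantile normalization over all 16 arrays the step from Poly NT to Total 242 was 0.03 (adjusted p = 0.867) in place of 0.34, so these groups were no longer ordered. PGD was highest in Poly NT and did not differ between Total NT, Total 242 and Poly 242 (neighbours 0.407 and 0.982), and its top step was lost after quantile normalization. RPIA and RPE formed a higher pair of vehicle groups and a lower pair of PP242 groups, and the pools within a pair did not differ beyond their spread (adjusted p from 0.178 to 0.976). After quantile normalization the RPIA step between the pairs was 0.21 (0.0929), and the vehicle groups of RPE differed, as given above. TKT and TALDO1 formed a higher pair of polysome groups and a lower pair of cytosolic groups, and the treatments within a pair did not differ beyond their spread by this test (0.154 to 0.923). After quantile normalization the step between the pairs was kept for TALDO1 (0.44, adjusted p = 0.0196) and lost for TKT (0.16, 0.386).

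The branches were compared by their array means, each enzyme first centred on its own mean over 16 arrays. The oxidative mean (PGLS and PGD) minus the non-oxidative mean (RPIA, RPE, TKT and TALDO1) was -0.27 ± 0.10 in Total NT, -0.11 ± 0.08 in Poly NT, 0.15 ± 0.20 in Total 242 and 0.23 ± 0.05 in Poly 242 (SD, n = 4). It was between -0.40 and -0.02 on the 8 vehicle arrays and between -0.07 and 0.33 on the 8 PP242 arrays, so cytosolic PP242 replicate 3 (-0.07) overlaps the polysome vehicle arrays. Within each pool the treatments did not overlap. The balance moved by 0.34 ± 0.04 (SE) on polysomes and by 0.42 ± 0.11 in the cytosol. No test is given, since the enzymes were picked with results known. The oxidative mean joins a rise and a fall, since the polysome effects of PGLS (0.48) and PGD (-0.64) oppose each other. PGD fell more on polysomes than any non-oxidative enzyme (-0.60 to -0.27), so the move of the balance there came from PGLS. In the cytosol the PGD difference of -0.21 lay within the non-oxidative range of -0.80 to 0.14. The balance is thus not a shared shift of the oxidative branch. With the mean of all probe sets of a gene the balance moved by 0.44 on polysomes and 0.22 in the cytosol.

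**Figure D4:**
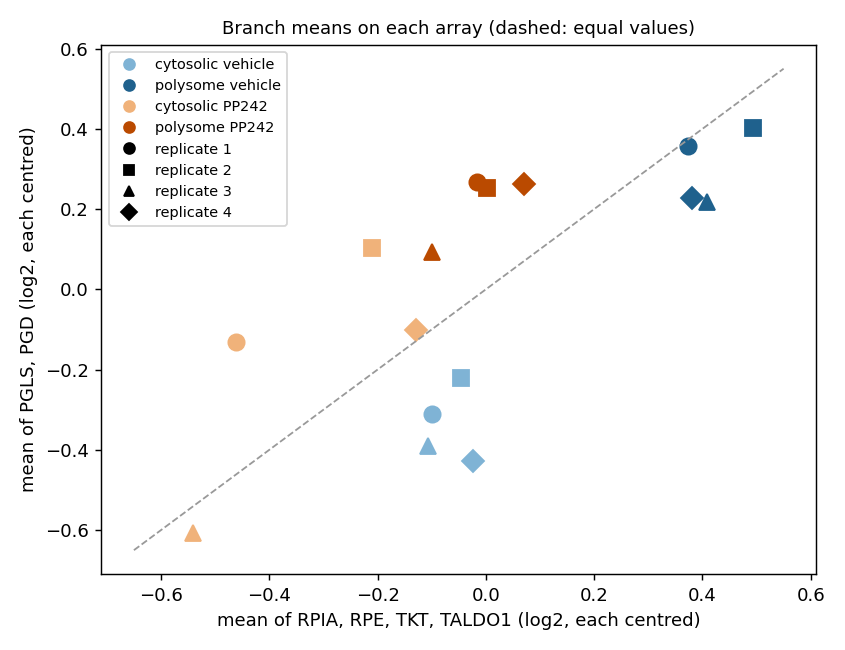
Mean of the oxidative enzymes (PGLS, PGD) against the mean of the non-oxidative enzymes (RPIA, RPE, TKT, TALDO1) on each of the 16 arrays, in log2 with each enzyme centred on its own mean; colours are groups, symbols are replicate numbers, and the dashed line marks equal values. The 8 vehicle arrays lie below the line (differences from -0.40 to -0.02), and 7 of the 8 PP242 arrays lie above it, with cytosolic PP242 replicate 3 just below (-0.07).

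Other probe sets of the same genes were read as a check, fitted over all 41091 probe sets that name 1 gene. The second bright PGLS probe set gave 0.56 in the cytosol (adjusted p = 0.0136) and 0.29 on polysomes, where it did not pass (0.265). Of the RPE probe sets with a mean above 7, the other 2 fell in the cytosol (by 0.58 and 0.46), and on polysomes 1 fell by 0.58 (adjusted p = 0.00363) while the other had -0.31 (0.0631). In vehicle these RPE probe sets disagree on polysome loading, with -0.45 (0.00144) and 0.29 (0.0527). The second TKT probe set gave -0.52 on polysomes (0.0849) and -0.02 in the cytosol (0.964), and a dimmer one had 0.07 on polysomes (0.926). In polysome loading the second set was called with vehicle (0.67, 0.00540) and not with PP242 (0.17, 0.455), unlike the first. PGD has no second bright probe set: both others average 4.73 and 4.24, near or below the array medians of 4.57 to 5.05, and gave -0.03 and 0.03 on polysomes. The PGD results thus rest on 1 probe set, as do those of RPIA and TALDO1, which have no other. With the mean of all probe sets PGD was at -0.21 on polysomes and was not called (0.151). RPE then fell by 0.37 on polysomes and 0.42 in the cytosol, and PGLS rose by 0.29 in the cytosol (0.0363).

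Genes with the most similar profile over the 16 arrays were found by the root mean square difference after centring. STOML1 and IGFBP6 were nearest to PGLS (0.110 and 0.114), PCBP1 and TTI2 to PGD (0.0832 and 0.109), TSN and STARD8 to RPIA (0.0994 and 0.102) and CMPK1 and VBP1 to RPE (0.109 and 0.122). DHPS and RTF2 were nearest to TKT (0.101 and 0.105), and XRCC6 and GCAT to TALDO1 (0.0736 and 0.0866). No member was among the 2 nearest genes of another. Beside those of RPE, CMPK1 had effects of -0.44 on polysomes and -0.62 in the cytosol, and VBP1 had -0.74 and -0.85. Since the neighbours were picked for likeness on these same arrays, similar effects follow from the choice.

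Promoters are shown for the 3 enzymes that changed in cytosolic RNA, PGLS, RPIA and RPE, since mRNA level is where the DNA before a gene could bear on the data. The sequences are the 250 bases before the annotated start, 5′ to 3′ on the gene's strand, from RefSeq (GRCh38.p14), and all 6 members matched that table. Capitals mark CCAAT boxes (CCAAT on either strand) and the antioxidant response element core (TGACNNNGC on either strand).
PGLS, chr19:17511399-17511648, plus strand: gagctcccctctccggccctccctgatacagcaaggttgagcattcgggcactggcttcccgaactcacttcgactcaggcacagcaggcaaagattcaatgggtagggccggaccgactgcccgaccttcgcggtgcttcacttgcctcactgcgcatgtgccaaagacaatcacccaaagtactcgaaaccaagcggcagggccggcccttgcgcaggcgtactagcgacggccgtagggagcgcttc
RPIA, chr2:88691423-88691672, plus strand: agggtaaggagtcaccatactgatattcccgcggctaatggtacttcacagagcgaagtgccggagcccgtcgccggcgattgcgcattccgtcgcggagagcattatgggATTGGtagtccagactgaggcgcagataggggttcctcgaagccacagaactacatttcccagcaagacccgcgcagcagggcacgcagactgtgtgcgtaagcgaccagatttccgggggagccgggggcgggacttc
RPE, chr2:210002388-210002637, plus strand: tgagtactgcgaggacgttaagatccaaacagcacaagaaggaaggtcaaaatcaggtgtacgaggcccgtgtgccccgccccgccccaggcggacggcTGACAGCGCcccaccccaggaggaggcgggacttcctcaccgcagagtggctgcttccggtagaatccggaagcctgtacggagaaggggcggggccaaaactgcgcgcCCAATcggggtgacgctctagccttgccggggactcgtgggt

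PGLS is the 1 member whose window holds neither a CCAAT box nor a GC box (GGGCGG on either strand). Both motifs are in the windows of the other 5 members, PGD, RPIA, RPE, TKT and TALDO1. Of these, RPIA and RPE were called lower in cytosolic RNA, and PGD, TKT and TALDO1 were not called there. Whether either motif bears on the mRNA levels was not tested. The CCAAT box is found in 32% of the 35116 promoters listed and the GC box in 42.6%. The antioxidant response element core, the letters of the NRF2 site, is in the PGD and RPE windows and in 10.9% of all promoters. No member holds the E-box CACGTG (6.34% of promoters) or the sterol regulatory element TCACNCCAC (0.883%) in this window. A terminal oligopyrimidine start, by which mTOR controls the translation of ribosomal protein mRNAs, begins with C and a run of pyrimidines. At the annotated start PGLS (ctcctccccg) and PGD (ccctcactcg) have a C followed by at least 4 pyrimidines, as do 4.07% of promoters, and the other 4 members do not. These are matches of letters only, at a single annotated start.

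Around the pathway, genes that feed it or use its products were read from a list of 15, of which 14 were measured (RPEL1 was not). The list was chosen with earlier results of these data known. On polysomes 2 rose, 6 fell and 6 did not pass, with a median of -0.34, where 13.4% of all genes were called and the median of all genes was -0.005. In the cytosol 3 rose, 6 fell and 5 did not pass, with a median of -0.21, against 16.5% and 0.04 for all genes. H6PD, which runs the oxidative steps inside the endoplasmic reticulum, rose by 1.10 ± 0.15 on polysomes (adjusted p = 5.70e-05) and 0.93 ± 0.15 in the cytosol. With the mean of all its probe sets H6PD rose by 0.44 and 0.36, still called in both pools. Its polysome signal had a mean of 7.11 (SD 0.32) with vehicle and 8.20 (SD 0.20) with PP242. Ribose 5-phosphate is used by the PRPP synthetases. PRPS1 fell by 1.20 ± 0.15 on polysomes and by 0.76 ± 0.15 in the cytosol, and PRPS2 fell by 1.00 ± 0.19 in the cytosol, with -0.56 ± 0.19 on polysomes (adjusted p = 0.0534). Without the cytosolic PP242 arrays 2 and 4 the cytosolic fall of PRPS2 was 0.54 (0.00777). Among mRNAs of their associated proteins, PRPSAP2 fell by 0.53 ± 0.10 on polysomes and 0.40 ± 0.10 in the cytosol. PRPSAP1 fell by 0.40 ± 0.11 on polysomes, while its cytosolic difference of -0.20 ± 0.11 was not called (adjusted p = 0.24, limma).

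TIGAR, a phosphatase known to divert glucose carbon into the pathway, fell by 0.91 ± 0.15 on polysomes and by 1.07 ± 0.15 in the cytosol. SHPK, which phosphorylates sedoheptulose, fell by 0.90 ± 0.15 and 0.64 ± 0.15. DERA, the deoxyribose phosphate aldolase, fell by 0.50 ± 0.14 on polysomes, and PGM2, which isomerises ribose phosphates, fell by 0.51 ± 0.13 in the cytosol. Cytosolic DERA differed by -0.23 ± 0.14 and was not called (adjusted p = 0.269, limma). With PP242 it read lower on arrays 1 and 3 (9.03 and 8.95) than on 2 and 4 (9.44 and 9.51). The gluconate kinase IDNK rose by 0.69 ± 0.19 on polysomes, and the ribokinase RBKS rose by 0.45 ± 0.13 in the cytosol. TKTL2, a transketolase-like gene, was called higher in the cytosol by 0.39 ± 0.13 at a signal of 2.48 to 3.28, below every array median. The calls of TKTL2, IDNK, PRPSAP1, DERA, PGM2 and RBKS, and of SHPK and PRPSAP2 in the cytosol, are each lost without at least 1 replicate number. Without the cytosolic PP242 arrays 2 and 4 the cytosolic calls of PGM2 (-0.31, adjusted p = 0.195), RBKS (0.27, 0.325) and TKTL2 (0.27, 0.351) were lost. PRPSAP1 was at -0.20 and not called with the mean of its probe sets (0.124). Without replicate 1 or 2 the list has 5 calls on polysomes, where 8.55% and 8.23% of all genes were called. Without replicate 2 it has 4 in the cytosol, where 7.8% of all genes were called.

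Other enzymes that can form NADPH and the NAD kinases made a second list, with all 14 genes measured and also chosen with results known. Which cofactor each enzyme uses in these cells, and how much NADPH it forms, was not tested. On polysomes 0 rose, 5 fell and 9 did not pass by limma, with a median of -0.21, where 13.4% of all genes were called. The same 5 had an unadjusted p under 0.05, as did 4764 of all 19775 genes. In the cytosol 0 rose, 4 fell and 10 did not pass, with a median of -0.22, where 16.5% of all genes were called. There 5 had an unadjusted p under 0.05, as did 5973 of all 19775 genes. IDH1, the cytosolic NADP-dependent isocitrate dehydrogenase, fell by 1.20 ± 0.18 on polysomes (adjusted p = 1.20e-04) and by 1.02 ± 0.18 in the cytosol (5.43e-04), or by 0.80 and 0.67 with the mean of its probe sets. Its mitochondrial counterpart IDH2 fell by 0.83 ± 0.15 on polysomes (9.02e-04) and had -0.26 ± 0.15 in the cytosol (0.280). Cytosolic IDH2 with PP242 read 8.18 and 8.28 on arrays 1 and 3, below the vehicle range of 8.75 to 8.86. The low-weight arrays 2 and 4 read 8.71 and 8.97. MTHFD2, of the mitochondrial folate pathway, fell by 1.24 ± 0.22 and 1.37 ± 0.22. Malic enzyme ME1 fell by 0.59 ± 0.11 in the cytosol (9.65e-04) and by 0.35 ± 0.11 on polysomes (0.0387), where the call was lost without any 1 replicate number. MTHFD1, the cytosolic folate enzyme, fell by 0.47 ± 0.12 on polysomes, and MTHFD2L by 0.87 ± 0.23 in the cytosol, and both calls were lost without replicate 2 (0.118 and 0.116). Cytosolic MTHFD1 differed by -0.26 ± 0.12 and was not called (0.176). With PP242 it read lower on arrays 1 and 3 (10.14 and 9.82) than on 2 and 4 (10.37 and 10.41). The MTHFD1 call was also lost without replicate 1 (0.0697), and the MTHFD2L call without replicate 4 (0.0936) and without the cytosolic PP242 arrays 2 and 4 (-0.59, 0.176). With the mean of all probe sets MTHFD1 was at -0.23 on polysomes (0.186) and MTHFD2L at -0.17 in the cytosol (0.138), neither called. Without replicate 1 or 2 the list has 3 calls on polysomes, where 8.55% and 8.23% of all genes were called. No gene of either list passed for polysome association by limma. An unadjusted p under 0.05 was found for 3 of 14 and 1 of 14, and for 8.85% of all genes.

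**Figure D5:**
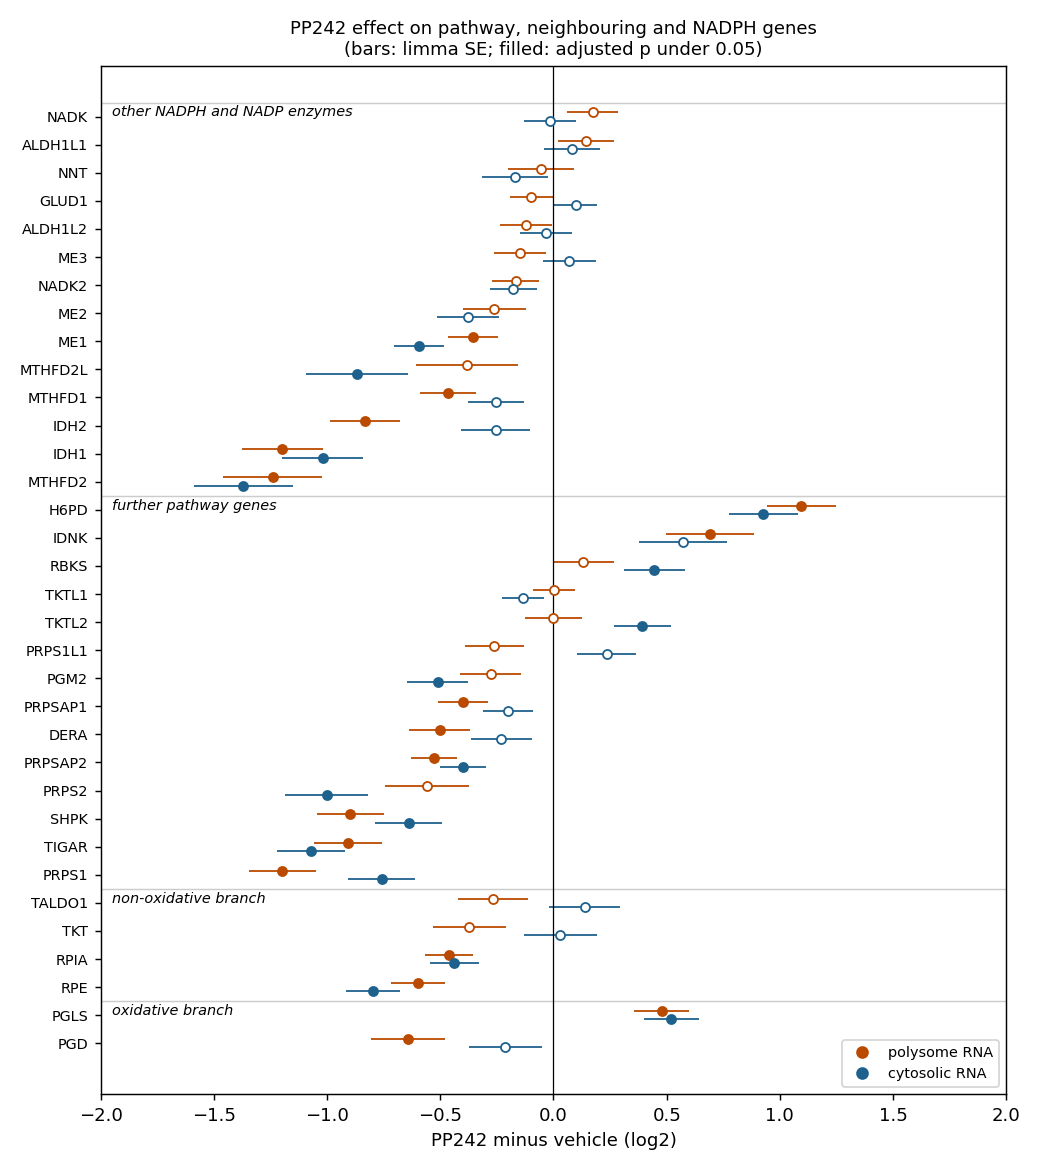
PP242 minus vehicle (log2, horizontal) in polysome RNA (orange) and cytosolic RNA (blue) for the 6 enzymes, the 14 measured further pathway genes and the 14 other NADPH-related genes, 1 row a gene, with limma SE; filled circles have an adjusted p under 0.05. H6PD lies farthest right (1.10 on polysomes, from its brightest probe set), PGLS is the 1 member to the right of 0 with filled circles, and PRPS1, TIGAR, IDH1 and MTHFD2 lie at the left in both pools.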

How the data were processed

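RNA of 16 samples was measured on Affymetrix arrays. The authors deposited a table of log2 values. The submitters' processing notes name RMA, whose version is not given in the sources used here. Values run from 1.65 to 14.61 with 0 missing. Quantiles of the arrays differ by 0.09 among cytosolic, 0.07 among polysome and 0.4 among all arrays. Of 54613 probe sets, 41091 name 1 gene in the platform annotation, 1801 several and 11721 none, and those naming 1 gene give 19775 genes. Each gene was read from its probe set with the highest mean.

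Group means were fitted to all 16 arrays with limma 3.58.1 (R 4.3.3; lmFit, eBayes with an intensity trend, two-sided, Benjamini-Hochberg over all genes, adjusted p under 0.05). The code was tested on simulated data. Whether equal replicate numbers are true pairs is not stated. Between groups that share a pool or a treatment, same-numbered deviations from group means correlated at 0.164 to 0.51 in 16 of 16 pairs. Only 7 of the 16 arrays were most alike their own number in every other group, so the pairing is partial. The members and lists were chosen with earlier results of these data known. Named were the 6 members, all called genes of both lists and the 2 nearest profiles of each member. Alternatives were the replicate block, array weights, other normalizations, probe sets and variance settings, a filter on dim genes, and arrays or numbers left out.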

Additional observations from a re-analysis of the deposited data

How the results depend on the processing

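Precision is limited by 4 arrays a group, and the cause of the changes below was not tested. RPE was called in both pools without any 1 replicate number, and no setting other than a single probe set reversed a member's polysome effect. With the replicate number as a block the members called were 5 on polysomes and 3 in the cytosol; TKT gained a call (-0.37, adjusted p = 0.0392), and no other member's call changed in any comparison. Array weights, the variance setting and the dim filter were not applied to the branch balance, the dim filter gives no list counts, and fits of only the groups compared give no association.

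Without 1 replicate number in turn, members called on polysomes ranged from 1 to 3. Further pathway genes called ranged from 5 to 7 on polysomes and from 4 to 7 in the cytosol, and the NADPH list from 3 to 4 on polysomes. In these fits 8.23% to 9.55% of all genes were called on polysomes and 7.8% to 16.8% in the cytosol. Effects that were not called and changed sign ranged, in the cytosol, from -0.05 to 0.15 (TKT) and -0.023 to 0.28 (TALDO1). For association they ranged from -0.087 to 0.047 (RPIA) and -0.14 to 0.063 (PGLS), and for polysome over cytosolic RNA with PP242 from -0.083 to 0.037 (PGD) and -0.037 to 0.12 (RPE). Numbers 3 and 4 alone called 0 members on polysomes (3 at an unadjusted p under 0.05, limma) and 1 in the cytosol, 3 further pathway genes in each pool, and 2 NADPH genes on polysomes. Of all genes they called 5.51% on polysomes and 5.35% in the cytosol.

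Other sign changes again concern effects that were not called, except where stated. Without the cytosolic PP242 arrays 2 and 4 the cytosolic effects were -0.24 (TKT) and -0.25 (TALDO1), PGLS association 0.13, and PGD over cytosolic RNA with PP242 0.19; array weights gave -0.032 for cytosolic TALDO1 and 0.049 for that PGD value. Quantile normalization gave 5e-04 (PGLS) and 0.066 (RPIA) for association and -0.050 for RPE over cytosolic RNA with PP242, and cyclic loess 0.0080, 0.017 and -0.092. Numbers 1 and 2 gave 0.015 for cytosolic PGD. Numbers 3 and 4 gave -0.055 for cytosolic TKT, 0.095 (PGLS) and 0.105 (RPIA) for association, and 0.095 (PGD), 0 (RPIA) and -0.115 (RPE) over cytosolic RNA with PP242. The mean of all probe sets gave 0.12 for PGLS association, -0.016 for PGD over cytosolic RNA with vehicle (called otherwise) and -0.019 for RPE with PP242. It moved the branch balance to 0.44 on polysomes, 0.22 in the cytosol, 0.23 for association and -0.19 over cytosolic RNA with vehicle.

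Single probe sets were added after seeing the data. A dim PGLS probe set gave -0.005 in the cytosol, called otherwise, and 0.24 for association, and a further one 0.54 for association. The dim RPE probe set gave 0.14 in the cytosol, called otherwise, -0.14 for association, and 0.065 and -0.073 over cytosolic RNA with vehicle and PP242. Brighter RPE probe sets gave -0.12 for association, 0.29 with vehicle and -0.18 with PP242. The dim PGD probe sets gave 0.10 and 0.27 for association, -0.64 with vehicle (adjusted p = 1.97e-04), 0.43 with PP242 (0.00526), and 0.028 on polysomes, the last and the vehicle value against a call. For TKT other probe sets gave -0.018 in the cytosol and 0.065 on polysomes.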
